A study of Homo sapiens with 16 samples.

Results

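A set of 1035 distal p53 binding sites was detected in both MCF10A and G12V cells, but not in every library. Overlapping peaks (1 bp or more) of the 4 p53 ChIP-seq lists gave 2980 merged sites. A site was selected on its peak calls when at least 1 MCF10A list and at least 1 G12V list, but not all 4 lists, held a peak there. It also had to lie outside promoters. A promoter covered the 1000 bp before and the 500 bp after each transcription start site (TSS) of the protein-coding genes. These sites are called partly shared below. The remaining sites were 288 distal core sites with a peak in all 4 lists, 345 distal MCF10A-only sites, 1028 distal G12V-only sites and 284 sites at promoters, 62 of which had the same pattern of calls as the partly shared ones. Because peak calls chose the sites, their fold enrichment, rank and −log10 q are given as a description and were not tested.

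MCF10A is a non-transformed, immortalised human mammary epithelial line. G12V cells are MCF10A cells that carry the G12V form of the HRAS oncogene (genotype label H-RAS Gv12), introduced by lentiviral transduction and selected with hygromycin, whereas the MCF10A samples are the parental line. Both were treated with Nutlin, which frees p53 from its inhibitor MDM2, before fixation, so no group shows p53 binding without the drug. The p53 antibody was DO-1, and there were 2 replicates per cell type, which the labels do not describe as separate cultures.

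p53 is a transcription factor that is stabilised by DNA damage and other stress. It binds DNA as a tetramer, on a motif made of a pair of adjacent decamers that each have a conserved C and G around an AT-rich centre. From promoters and from distal elements it activates genes for growth arrest, cell death, DNA repair and metabolism, and interspersed repeats, among them long terminal repeats of endogenous retroviruses, are known to carry p53 motifs.

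The 4 lists were unequal. They held 1718 peaks in MCF10A replicate 1, 885 in MCF10A replicate 2, 477 in G12V replicate 1 and 2619 in G12V replicate 2, called at depths of 21.4, 20.1, 9.26 and 23.9 M reads that were recovered from the lists themselves. For G12V replicate 2 this is the depth after scaling down to its input, and the ChIP depth recovered before scaling was 33.2 M reads. G12V replicate 1 stood apart, as it was the shallowest library, and its peak names carry the word "old". It lacked a peak at 945 of the 1035 sites, and 641 partly shared sites were left when that list was not used. Absence from a list means only that no peak was detected in that library at its depth, and does not show that the site was unbound.

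The sequences below show what most of these sites have in common, a p53 motif at the summit (in capitals, 20 bases, with 20 bases on either side), read from the GRCh37 (hg19) reference on the plus strand. The first 4 are the highest-placed partly shared sites whose motif has no mismatch to the p53 consensus, near GDNF, GPC3, TEX37 and CDKAL1. EGFLAM and ACTR3B, with 1 mismatch, are among the highest-placed sites of their list combinations, and CDKN1A and FOSL1 are sites inside a p53 target and an AP-1 gene with 3 and 2 mismatches.
GDNF (chr5:37848147-37848206, plus strand): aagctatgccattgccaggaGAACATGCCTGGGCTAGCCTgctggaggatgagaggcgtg
GPC3 (chrX:132920566-132920625, plus strand): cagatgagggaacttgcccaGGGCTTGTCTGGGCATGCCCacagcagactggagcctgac
TEX37 (chr2:88837981-88838040, plus strand): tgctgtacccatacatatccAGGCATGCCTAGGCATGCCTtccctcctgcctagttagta
CDKAL1 (chr6:20867089-20867148, plus strand): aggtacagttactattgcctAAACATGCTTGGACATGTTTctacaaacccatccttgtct
EGFLAM (chr5:38427460-38427519, plus strand): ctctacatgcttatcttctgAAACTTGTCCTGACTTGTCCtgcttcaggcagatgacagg
ACTR3B (chr7:152430819-152430878, plus strand): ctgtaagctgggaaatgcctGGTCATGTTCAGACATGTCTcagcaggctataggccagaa
CDKN1A (chr6:36650400-36650459, plus strand): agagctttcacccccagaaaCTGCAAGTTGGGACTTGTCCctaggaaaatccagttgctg
FOSL1 (chr11:65666679-65666738, plus strand): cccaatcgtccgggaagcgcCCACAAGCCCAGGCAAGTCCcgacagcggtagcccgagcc

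Some partly shared sites also hold the motif of AP-1, the FOS and JUN dimer that acts downstream of RAS. The AP-1 motif was searched as TGACTCA and TGAGTCA on both strands without mismatch, and is given in capitals beside the p53 motif in the pair of sites below, on the plus strand. The centres of both motifs lie 54.5 bp apart at the EVC site and 42.5 bp apart at the C6 site.
EVC (chr4:5775058-5775165, plus strand): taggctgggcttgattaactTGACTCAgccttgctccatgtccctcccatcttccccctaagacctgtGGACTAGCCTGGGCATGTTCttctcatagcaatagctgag
C6 (chr5:41122715-41122810, plus strand): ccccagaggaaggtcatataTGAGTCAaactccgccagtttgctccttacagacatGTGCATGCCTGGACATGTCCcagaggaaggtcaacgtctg

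Many of the motifs sit in sequence that recurs across the genome. Examples follow from the second and the fifth family, in the order of how many partly shared sites each family holds. Members of a family are in the same orientation so that the bases beside the motif can be compared. Sites near RPAP3, TRIM36, CROT, TRPM1 and VIM belong to the second family, and those near ELMO1, EFCAB5, RBPJ and CNTN5 to the fifth.
RPAP3 (chr12:47950230-47950289, plus strand): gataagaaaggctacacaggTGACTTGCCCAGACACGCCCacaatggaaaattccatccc
TRIM36 (chr5:114368605-114368664, plus strand): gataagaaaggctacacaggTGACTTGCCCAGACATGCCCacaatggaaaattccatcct
CROT (chr7:86960420-86960479, minus strand): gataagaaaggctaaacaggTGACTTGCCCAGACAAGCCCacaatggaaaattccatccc
TRPM1 (chr15:31443028-31443087, plus strand): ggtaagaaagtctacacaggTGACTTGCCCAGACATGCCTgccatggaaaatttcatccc
VIM (chr10:17289457-17289516, plus strand): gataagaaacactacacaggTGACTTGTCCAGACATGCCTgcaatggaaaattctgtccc
ELMO1 (chr7:37528189-37528248, plus strand): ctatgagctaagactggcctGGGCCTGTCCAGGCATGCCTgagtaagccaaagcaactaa
EFCAB5 (chr17:28367824-28367883, minus strand): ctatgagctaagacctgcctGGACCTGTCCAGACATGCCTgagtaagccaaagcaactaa
RBPJ (chr4:26408430-26408489, plus strand): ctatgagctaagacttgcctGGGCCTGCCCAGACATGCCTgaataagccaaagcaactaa
CNTN5 (chr11:97614327-97614386, minus strand): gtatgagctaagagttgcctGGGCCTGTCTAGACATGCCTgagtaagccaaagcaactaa

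The first question was which libraries detected these sites. MCF10A replicate 1 together with G12V replicate 2 alone held 522 sites (50.4%), and both MCF10A replicates with G12V replicate 2 held 394 (38.1%). MCF10A replicate 1 with both G12V replicates held 87 (8.41%), MCF10A replicate 2 with G12V replicate 2 held 29 (2.80%), and MCF10A replicate 2 with both G12V replicates held 3. All 1035 sites thus had a peak in G12V replicate 2, the longest list, against 1003 in MCF10A replicate 1, 426 in MCF10A replicate 2 and 90 in G12V replicate 1. They made up 39.5% of the sites of G12V replicate 2, 58.4% and 48.2% of those of MCF10A replicates 1 and 2, and 18.9% of those of G12V replicate 1. Without G12V replicate 2 only 91 sites met the rule and without MCF10A replicate 1 only 423, whereas 916 did without MCF10A replicate 2.

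**Figure D1:**
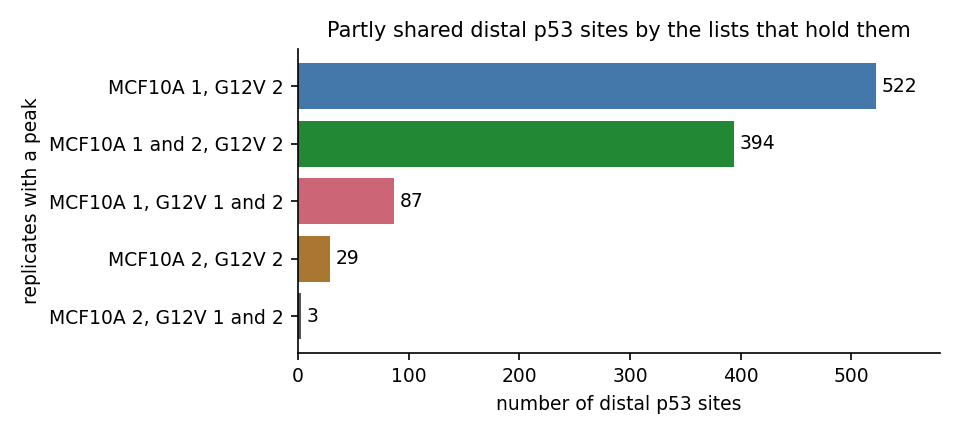
Number of partly shared distal p53 sites (x axis) for each combination of replicates with a peak (y axis). The combination of MCF10A replicate 1 and G12V replicate 2 holds 522 of the 1035 sites, and the combinations with G12V replicate 1 hold 87 and 3.

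The partly shared sites were of intermediate strength. Fold enrichment, the ratio of the pileup at the summit to the local background as the peak caller gave it, had a median of 8.32 in MCF10A replicate 1, 7.69 in MCF10A replicate 2, 7.44 in G12V replicate 1 and 9.36 in G12V replicate 2. At core sites the medians were 18.7, 11.5, 9.31 and 23.9 in the same order, and at MCF10A-only sites they were 6.78 and 6.52 in the MCF10A lists. G12V-only sites had medians of 7.06 and 6.56 in G12V replicates 1 and 2. The same order held for the number of stacked fragments at the summit (scaled to the input depth in G12V replicate 2), with medians of 22 in MCF10A replicate 1 and 30.3 in G12V replicate 2 for partly shared sites, against 51 and 78.6 for core sites. When each list was cut to its strongest 477 peaks, 644 of the partly shared sites were in none of them, and 57 were among the strongest of both MCF10A replicate 1 and G12V replicate 2.

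The weakest partly shared peaks lay close to the calling threshold, a q of 5% or a −log10 q of 1.30. The lowest −log10 q was 1.58 in MCF10A replicate 1 (near CD36), 1.38 in MCF10A replicate 2 (near ACBD6), 2.56 in G12V replicate 1 (near ASAP1) and 1.31 in G12V replicate 2 (near NR6A1). At the promoter limit, the sites just outside a promoter were 23 bp from that of AK3, 27 bp from that of the tyrosine kinase gene SRC and 63 bp from that of LMNA, and sites near MUC2 and FAH overlapped their promoters by 37 and 48 bp and were not kept.

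Fold enrichment at a single site could be compared across the cell types mainly between 1 pair of libraries, MCF10A replicate 1 and G12V replicate 2, so that a difference between them cannot be told apart from the spread between libraries. Over the 1003 sites with peaks in both, the log2 ratio of fold (G12V replicate 2 over MCF10A replicate 1) had a median of 0.15, with quartiles of -0.35 and 0.64. Fold in the one list was only loosely tied to fold in the other, with a Spearman rho of 0.27 over these sites and of 0.39 over the 288 core sites, which share the libraries and are given as a description. Sites that also had a peak in MCF10A replicate 2 had a median log2 ratio of -0.13, those in neither further list 0.19, and those that also had a peak in G12V replicate 1 0.86. These medians are bound to the peak calls that chose the sites. Replicates of one cell type also differed in fold: sites of MCF10A replicate 1 and both G12V replicates had a median of 7.46 in G12V replicate 1 and 15.9 in G12V replicate 2, and sites of both MCF10A replicates and G12V replicate 2 had a median of 11.2 in MCF10A replicate 1 and 8.05 in MCF10A replicate 2. The summits coincided, lying a median of 20 bp apart and within 100 bp of each other at 98.1% of these 1003 sites.

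**Figure D2:**
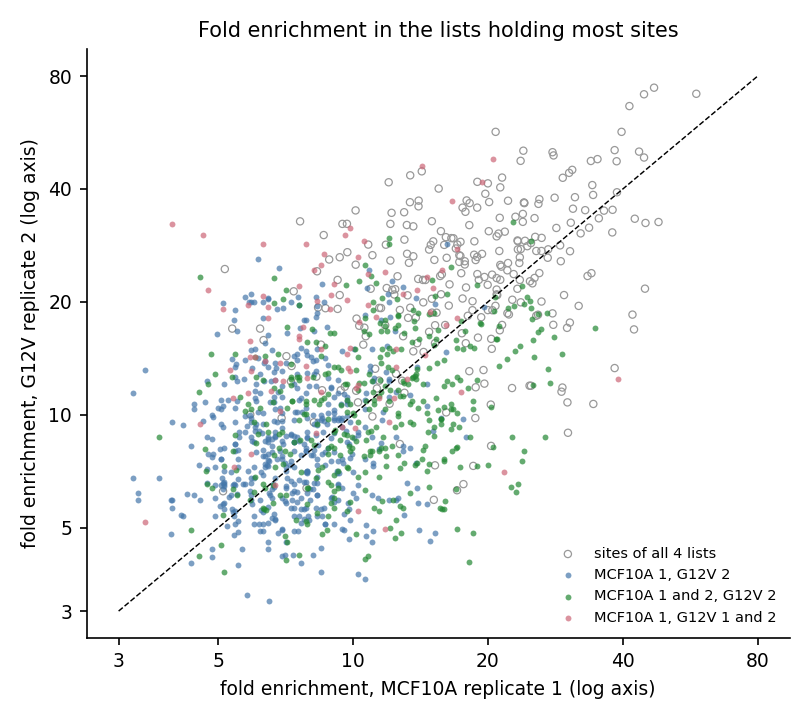
Fold enrichment in MCF10A replicate 1 (x axis) and in G12V replicate 2 (y axis), both on log axes, for partly shared sites coloured by the replicates with a peak and for core sites of all 4 lists (open circles). The dashed line marks equal fold. Core sites, with medians of 18.7 and 23.9, lie above most partly shared sites, with medians of 8.32 and 9.36.

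The strongest partly shared sites were named by the nearest TSS. The site 8032 bp upstream of GDNF, which encodes a neurotrophic growth factor, had a fold of 38.9 in MCF10A replicate 1, no peak in MCF10A replicate 2, 22.4 in G12V replicate 1 and 12.5 in G12V replicate 2. It was peak number 1 of the G12V replicate 1 list, number 17 of MCF10A replicate 1 and number 40 of G12V replicate 2. Its summit held 95 stacked fragments in MCF10A replicate 1 and 259 in G12V replicate 2, so the local background was higher in the latter. At EGFLAM and C6, also on chromosome 5, the stacked fragments were 37 and 24 in MCF10A replicate 1 and 189 and 182 in G12V replicate 2. Their folds were 17.4 and 9.87 against 11.5 and 13.1, so the background was higher there as well. The cause was not tested. The site in an intron of CR1L, a complement receptor-like gene, had folds of 19.4 in MCF10A replicate 1, 17.5 in G12V replicate 1 and 41.7 in G12V replicate 2. The site in CAPN2, which encodes a subunit of the protease calpain, followed with folds of 15.1, 15.9 and 21.7 in the same lists. Near YAP1, the coactivator of the Hippo pathway, a site without a p53 motif but with an AP-1 motif had the highest fold of any partly shared site in G12V replicate 2, 48.1, against 20.5 in MCF10A replicate 1 and 8.29 in G12V replicate 1.

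Among sites that G12V replicate 1 lacked, several were strong in both MCF10A replicates. The site 66564 bp upstream of CCN6 had folds of 34.6 and 20.9 in MCF10A replicates 1 and 2 and of 17.0 in G12V replicate 2. In an intron of TRPM1, a cation channel gene, the folds were 29.2, 23.9 and 14.6 in the same order, and 23.9 was the highest of any partly shared site in MCF10A replicate 2. The intronic site of GPC3, a cell surface proteoglycan gene, had folds of 22.9, 22.6 and 19.5, and the intronic site of SRC, 1291 bp from a TSS, had 22.7, 13.0 and 32.6. The highest fold was in MCF10A replicate 1 at CCN6, TRPM1 and GPC3, and in G12V replicate 2 at SRC. Sites of MCF10A replicate 1 and G12V replicate 2 alone were led by ACTR3B (16.2 and 28.5), RASSF3, a RAS association domain gene (19.6 and 19.4), the zinc exporter gene SLC30A1 (15.1 and 9.05) and CDH9 (16.1 and 14.7). Sites of MCF10A replicate 2 and G12V replicate 2 alone were led by TREML2, with folds of 11.8 and 13.5.

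The 3 sites of MCF10A replicate 2 and both G12V replicates differed from all of these. They lay within 2.04 kb of each other on chromosome 21, from 9825422 to 9827461 and at least 1163661 bp from the nearest protein-coding TSS (TPTE), and none had a p53 motif. The 2 highest-placed had folds of 3.97 and 3.47 in MCF10A replicate 2 and of at most 2.08 in the G12V lists, with 94 and 102 stacked fragments at the summit in MCF10A replicate 2. The pileup there was high and the local background was high as well. All 3 also overlapped CTCF peaks.

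The second question was whether the sites carry the p53 motif, which the choice of sites did not use. In the 150 bp around the summit, 844 of 1035 partly shared sites (81.5%, exact 95% interval 79.0 to 83.9%) had a p53 motif with the C and G of both decamers intact and at most 3 mismatches elsewhere, beside 70.4% of all merged p53 sites. The share was 0.435% in windows 2000 bp to either side of the same summits. At core sites it was 91.7% (264 of 288), a difference of -10.1 percentage points (interval -13.8 to -5.74, two-sided Fisher's exact test, adjusted p = 9.4e-05 over the 10 tests run). At MCF10A-only sites it was 70.7% (244 of 345), 10.8 points lower than at partly shared sites (interval 5.64 to 16.3, exact adjusted p = 0.00012), and at G12V-only sites 57.7% (593 of 1028), 23.9 points lower (interval 20.0 to 27.6, exact adjusted p = 1.36e-31). These tests take sites as the units and carry no replicate error between cultures, and the intervals cover counting error alone. By the rule every partly shared site had a peak in lists of both cell types, whereas most single-cell-type sites had a peak in 1 list. Of the 1028 G12V-only sites, 38 had a peak in G12V replicate 1 and 1024 in replicate 2. Of the 345 MCF10A-only sites, 313 had one in MCF10A replicate 1 and 96 in replicate 2. The part of this in the differences was not tested.

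The difference from G12V-only sites held when each list was cut to its strongest 477 peaks (13.2 points, exact adjusted p = 0.020), but the other differences did not. There the partly shared sites, 153 in number, had a share of 87.6%, against 90.8% at core sites (exact adjusted p = 0.75) and 84.9% at MCF10A-only sites (exact adjusted p = 0.88). Without G12V replicate 2 the difference from MCF10A-only sites was 0.95 points (exact adjusted p = 0.90).

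**Figure D3:**
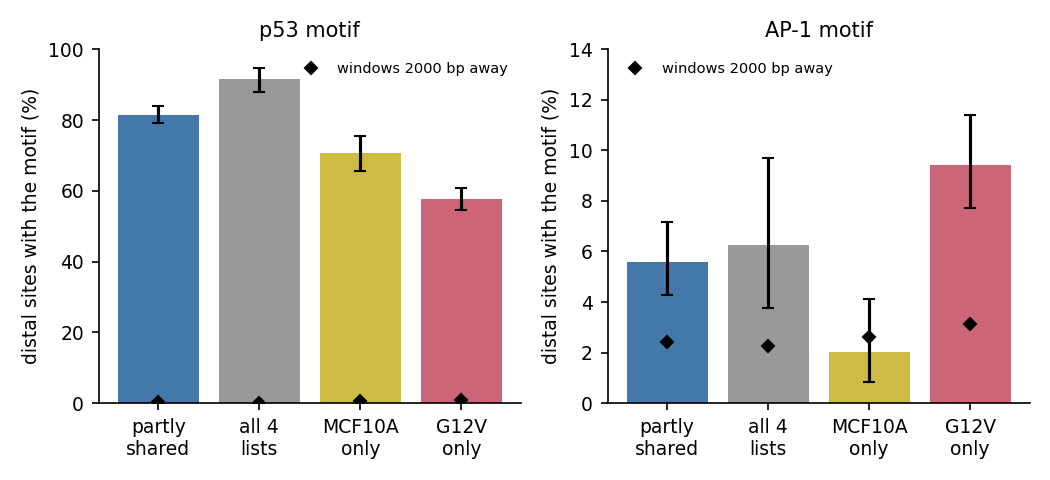
Percent of distal sites with a p53 motif (left) and with an AP-1 motif (right) in the 150 bp around the summit, for partly shared, core, MCF10A-only and G12V-only sites, with exact 95% binomial intervals as error bars. Diamonds give the percent of windows 2000 bp away. The p53 share of partly shared sites, 81.5%, lies between that of core sites, 91.7%, and those of the single-cell-type classes, 70.7 and 57.7%.

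The motifs of partly shared sites were less perfect than those of core sites, but closer to the consensus than those of the single-cell-type classes. A motif without mismatch was found at 113 partly shared sites (10.9%) and at 78 core sites (27.1%), and 1 mismatch at 258 (24.9%) and 104 (36.1%). A motif without mismatch was present at 5.51% of MCF10A-only, 4.57% of G12V-only and 8.96% of all merged p53 sites. With 1 mismatch the shares were 13.3, 9.92 and 17.8% in the same order. Motifs with 2 mismatches were the most frequent class among partly shared sites, with 337 (32.6%), whereas 136 (13.1%) had 3 and 191 had none that met the limit. The motif lay a median of 11 bp from the summit and within 25 bp at 690 of the 844 sites (81.8%). Fold enrichment was only weakly tied to mismatches, with Spearman rho of -0.07 in MCF10A replicate 1, -0.13 in MCF10A replicate 2, -0.15 in G12V replicate 1 and -0.14 in G12V replicate 2, given as a description across sites. In G12V replicate 2 the median fold was 10.9 at sites without mismatch and 8.59 at sites with 3, beside 8.75 at sites without a motif. Of the sites without mismatch 68 of 113 (60.2%) were held by 3 lists, against 78 of 191 (40.8%) without a motif. Of the partly shared sites as a whole, 83.9% of the 484 sites of 3 lists and 79.5% of the 551 sites of 2 lists held a p53 motif, a difference of 4.39 points whose interval included 0 (-0.35 to 9.06, exact adjusted p = 0.11). With at most 2 mismatches allowed, it was 6.95 points (exact adjusted p = 0.027).

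**Figure D4:**
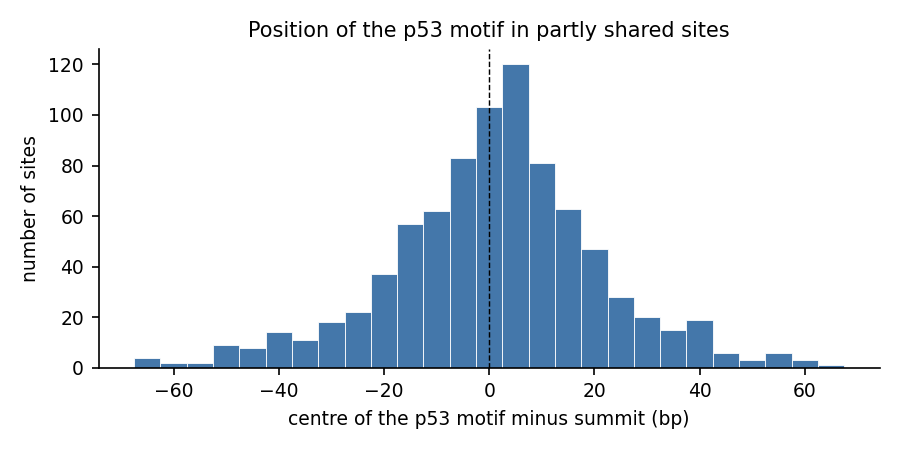
Distance in bp from the summit to the centre of the p53 motif (x axis, bins of 5 bp) for the 844 partly shared sites with a motif (y axis, number of sites). The dashed line marks the summit, and 690 of the sites lie within 25 bp of it.

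An AP-1 motif was found at 58 partly shared sites (5.60%, exact 95% interval 4.28 to 7.18%), beside 6.71% of all merged p53 sites and 2.42% of the windows 2000 bp away. The share was 9.44% at G12V-only sites (97 of 1028), a difference of -3.83 points (interval -6.14 to -1.56, exact adjusted p = 0.0027), and 2.03% at MCF10A-only sites (7 of 345), a difference of 3.57 points (interval 1.14 to 5.46, exact adjusted p = 0.010). At core sites it was 6.25% (18 of 288), and the difference of -0.65 points was not resolved (interval -4.28 to 2.11, exact adjusted p = 0.67). These values depended on single lists, and leaving out a list also moves sites between classes. The difference from G12V-only sites was -2.30 points without G12V replicate 1 (exact adjusted p = 0.14). Without G12V replicate 2, with 39 G12V-only sites left, it was 3.66 points (exact adjusted p = 0.90). It was -6.55 points without MCF10A replicate 1 (exact adjusted p = 1.4e-06) and -4.65 points without MCF10A replicate 2 (exact adjusted p = 0.00030). In lists of equal length it was -8.39 points (exact adjusted p = 0.035). That from MCF10A-only sites was -0.997 points without MCF10A replicate 1 (exact adjusted p = 0.47).

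Within the partly shared sites, the AP-1 share differed between list combinations. It was 14.9% (13 of 87, interval 8.20 to 24.2%) at sites of MCF10A replicate 1 and both G12V replicates, 5.94% (31 of 522) at sites of MCF10A replicate 1 and G12V replicate 2, and 3.05% (12 of 394, interval 1.58 to 5.26%) at sites of both MCF10A replicates and G12V replicate 2. The smaller combinations held 2 of 29 (6.90%) for MCF10A replicate 2 with G12V replicate 2 and 0 of 3 for MCF10A replicate 2 with both G12V replicates. The intervals cover counting error over sites alone, and the combinations are set by the same peak calls as the rule. No test was made, since the contrast was chosen after the values were seen. The p53 motif share of these combinations, in the same order, was 83.9, 79.9, 84.5 and 72.4%, and 0 of 3 sites for the last. Sites with both motifs numbered 41, and 17 had an AP-1 motif alone. The highest-placed of the 41 were those in CR1L, CCDC158 and EVC and near C6, a complement gene. At EVC, a ciliary gene, the folds were 20.9 and 17.4 in MCF10A replicates 1 and 2 and 15.9 in G12V replicate 2, and at C6 they were 9.87 in MCF10A replicate 1, 7.44 in G12V replicate 1 and 13.1 in G12V replicate 2. Without G12V replicate 2, the only 91 sites that met the rule all had a peak in G12V replicate 1. Their AP-1 share was 16.5%, 10.99 points above that of core sites, which repeats the contrast between combinations and is no separate test. Without either MCF10A replicate the share was below that of core sites, with differences of -3.37 points without replicate 1 and -3.57 points without replicate 2. Without replicate 2 the 87 sites of MCF10A replicate 1 and both G12V replicates count as core, which then held 375 sites in place of 288. These differences come from regrouped classes and do not bear on the main comparison with core sites.

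Words of other factors were searched in the same windows. GGAATG, the core of the TEAD motif, was present at 11.7% of partly shared sites, in 8.36% of the windows 2000 bp away and at 11.2% of all merged p53 sites. TGTGGT, the core of the RUNX motif, was present at 8.31, 9.37 and 8.79% in the same order, and CCGGAA, an ETS word, at 1.26, 1.35 and 2.38%.

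The sequence beside the motif was compared among all 2099 merged sites with a p53 motif. A pair of sites was called related when at least 28 of the 40 bases beside the motif (20 on either side, no gaps, both orientations) were identical. By this measure 297 of the 844 partly shared sites with a motif (35.2%, exact 95% interval 31.96 to 38.5%) were related to another p53 site, and fell into 43 families. The share over all merged sites with a motif was close to this, 34.3% (721 of 2099), so related sequence did not mark the partly shared sites. It was 47.0% at core sites (124 of 264), 37.6% at G12V-only sites (223 of 593) and 19.7% at MCF10A-only sites (48 of 244). With at least 32 identical bases required it was 26.9% at partly shared and 40.2% at core sites, beside 27.0% of all sites with a motif. The families were found after the sequences had been seen, so these shares were not tested. No repeat annotation was used and the families are not named as repeats. Only reads that aligned uniquely had been kept by the authors.

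The largest family held 94 partly shared sites on 23 chromosomes, 11.1% of those with a motif (interval 9.09 to 13.5%). Over all classes it held 259 of the 2099 sites with a motif. Among them were 116 G12V-only sites (19.6%, interval 16.4 to 22.99%) and 13 core sites (4.92%, interval 2.65 to 8.27%). In 71 of its 94 partly shared sites the motif had 2 mismatches, and 52 lay inside protein-coding genes. The median fold was 7.25 in MCF10A replicate 1 and 8.89 in G12V replicate 2, and 24 of the 94 had peaks in both MCF10A replicates.

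The second family, that of RPAP3, TRIM36, CROT, TRPM1 and VIM, was distributed the other way. It held 65 partly shared sites (7.70%, interval 5.99 to 9.71%) and 44 core sites (16.7%, interval 12.4 to 21.7%), with 37 G12V-only sites (6.24%). Over all classes it held 156 of the 2099 sites with a motif. Its motifs were closer to the consensus, with 0 mismatches at 21 and 1 at 38 of the 65 sites. Only 15 of the 65 (23.1%) lay inside protein-coding genes. The median fold was 8.60 in MCF10A replicate 1, 8.83 in MCF10A replicate 2 and 12.4 in G12V replicate 2, and 40 of the 65 had peaks in both MCF10A replicates. The sites near TREML2 and DRAM1 also belonged to it. The third family held 13 partly shared sites and 0 of 264 core sites with a motif (interval up to 1.39%), and all 13 had 2 mismatches. The fifth family (ELMO1, EFCAB5, RBPJ and CNTN5) held 8 partly shared and 3 core sites, 0 of 244 MCF10A-only and 0 of 593 G12V-only sites with a motif. Families were ordered by their number of partly shared sites, a choice that favours families rich in this class and poor in others.

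**Figure D5:**
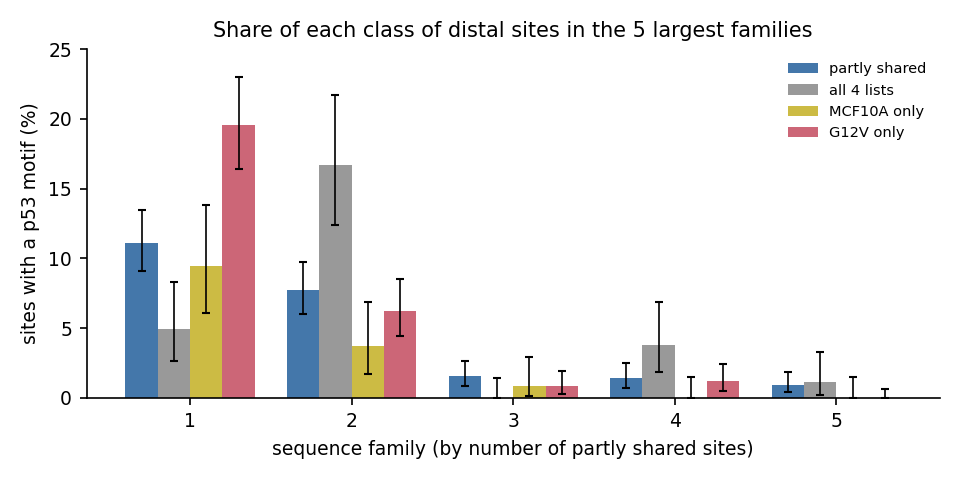
Percent of the sites with a p53 motif (y axis) that belong to each of the 5 families with most partly shared sites (x axis), for partly shared, core, MCF10A-only and G12V-only distal sites, with exact 95% binomial intervals. The first family takes 11.1% of partly shared, 4.92% of core and 19.6% of G12V-only sites, and the second 7.70, 16.7 and 6.24%.

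The median fold of the 297 related sites was 8.29 in MCF10A replicate 1 and 10.4 in G12V replicate 2, and that of the 547 unrelated sites with a motif 8.53 and 8.86. Peaks in 3 lists were found at 48.1% of both. Of the related sites 37.0% lay inside protein-coding genes, against 50.3% of the unrelated ones.

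The third question was where the sites lie. By their summits, 462 partly shared sites (44.6%) were in introns of protein-coding genes, 15 in UTRs, 4 in coding exons and 554 (53.5%) outside protein-coding genes (GENCODE on GRCh37). Outside protein-coding genes lay 62.2% of core, 50.1% of MCF10A-only and 53.6% of G12V-only sites, so it was the core class that stood apart. The share inside genes was 46.5% at partly shared sites, against 37.8% at core sites, a difference of 8.63 points (interval 2.15 to 14.8, exact adjusted p = 0.018). It was 3.29 points without G12V replicate 1 (exact adjusted p = 0.28), 7.67 points without G12V replicate 2 (exact adjusted p = 0.29) and 3.01 points in lists of equal length (exact adjusted p = 0.88). The median distance to the nearest protein-coding TSS was 30902 bp, with quartiles of 10150.5 and 106331.5 bp, and 136 sites (13.1%) were under 5000 bp away whereas 265 (25.6%) were over 100000 bp away.

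Every chromosome except Y held partly shared sites, from 15 on chromosome 21 to 114 on chromosome 1. Of the 2980 p53 sites of all classes 1035 were partly shared, and by chromosome, leaving out the 3 sites on Y, the share ran from 19.3% on chromosome 19 (17 of 88) to 46.4% on chromosome 13 (32 of 69), with no test made. The median distance to the next p53 site of any class was 281652 bp, and 58 partly shared sites (5.60%) had another within 10000 bp, as had 10.4% of core sites.

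CTCF peaks, from the 4 CTCF lists of the same cell types, overlapped 20 partly shared sites (1.93%, exact 95% interval 1.18 to 2.97%), beside 3.09% of all merged p53 sites. After a shift of 10 kb the overlap was 0.77%. Core sites overlapped CTCF peaks at 3.47% (10 of 288), and the difference of -1.54 points was not resolved (interval -4.42 to 0.34, exact adjusted p = 0.15). It was -3.52 points without MCF10A replicate 1 (exact adjusted p = 0.0087) and -1.94 points without MCF10A replicate 2 (exact adjusted p = 0.037), but 0.45 points without G12V replicate 1 (exact adjusted p = 0.71) and 3.78 points without G12V replicate 2 (exact adjusted p = 0.10). Leaving out a list moves sites between the classes, so these differences do not compare the same sets of sites. Of the strongest sites named above, that of SLC30A1 overlapped a CTCF peak in all 4 CTCF lists.

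The sites were spread over many genes. A total of 948 genes were nearest to a partly shared site, 871 of them to exactly 1 and 9 to 3 or more, and the latter are named here although the rule did not ask for them. ERBB4, which encodes a receptor of the EGF receptor family, was nearest to 4, all with a p53 motif and all in MCF10A replicate 1 and G12V replicate 2 alone, 3 of them in its introns. The folds at the ERBB4 sites were 10.9, 6.06, 8.18 and 7.85 in MCF10A replicate 1 and 13.1, 7.98, 6.58 and 8.004 in G12V replicate 2. SYNE1, a nuclear envelope gene, held 3 in its introns, with folds of 10.6, 4.42 and 8.74 in MCF10A replicate 1 and of 29.0, 10.4 and 17.2 in G12V replicate 2, and the first of them also had a fold of 4.82 in G12V replicate 1. At SYNE1 every fold was thus higher in G12V replicate 2, while at ERBB4 neither list was higher throughout. Of all sites of MCF10A replicate 1 and G12V replicate 2 alone, 67.8% stood higher up the list in G12V replicate 2. Where G12V replicate 1 had a peak as well, 90.8% did. The direction at SYNE1 is thus no result about this gene. CDH9, DPH6, LRATD1, PRR20A, TPTE, VCX and ZNF608 were nearest to 3 each.

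Genes of 9 lists were examined for a partly shared site within 100 kb of a TSS. Of all 20136 protein-coding genes 9.1% had one, and of the 120 genes listed 18 (15.0%) did. By list, these were 4 of 10 cell cycle arrest targets of p53, 3 of 10 metabolism and autophagy targets, 1 of 7 DNA repair targets, 4 of 12 AP-1 family genes, 4 of 20 genes for the EGF receptor, its ligands and RAS-MAPK feedback, 1 of 23 basal adhesion and keratin genes and 1 of 14 genes of the epithelial-mesenchymal transition. None of 8 p53 feedback genes and none of 16 cell death targets of p53 had one, and at the 9.1% of all genes a count of 0 in lists this short is no result about them. A p53 site of any class lay within the same distance of 6 of the 8 and 14 of the 16, beside 26.8% of all protein-coding genes. With lists of equal length the count of list genes was 2, without MCF10A replicate 1 it was 8 and without G12V replicate 2 it was 3.

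Among the cell cycle arrest targets, a partly shared site lay in an intron of CDKN1A, the inhibitor of cyclin-dependent kinases, at chr6:36650234-36650654 and 3857 bp from a TSS. Its fold was 7.85 in MCF10A replicate 1 and 11.4 in G12V replicate 2, with no peak in the other replicates. Of the 18 list genes, CDKN1A, GADD45A, ATF3 and TGFA also had 1 core site within 100 kb. BTG2, an antiproliferative gene, had a site in its intron 1172 bp from a TSS (chr1:203275559-203275994), with folds of 8.47 in MCF10A replicate 1, 5.95 in G12V replicate 1 and 15.0 in G12V replicate 2. Near GADD45A, a growth arrest and DNA damage gene, a site inside GNG12 at 39656 bp had folds of 8.48 and 5.26 in MCF10A replicates 1 and 2 and of 14.3 in G12V replicate 2. The site of SFN, which encodes 14-3-3 sigma, was 1758 bp from the TSS and had no p53 motif, with folds of 6.39 in MCF10A replicate 2 and 5.62 in G12V replicate 2. At CDKN1A, BTG2 and GADD45A the fold was highest in G12V replicate 2, at SFN in MCF10A replicate 2. The median log2 ratio (G12V replicate 2 over MCF10A replicate 1) was 0.19 over all sites of the list combination of CDKN1A. It was 0.86 for the combination of BTG2 and -0.13 for that of GADD45A. The count is thus no result about these targets.

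Of the other p53 targets, the site of DRAM1, a lysosomal regulator of autophagy, had a motif without mismatch 22029 bp from the TSS, with folds of 3.44 in MCF10A replicate 1 and 13.2 in G12V replicate 2. The sites within 100 kb of the sestrin genes lay far from them, at 95424 bp from SESN1 in an intron of ARMC2 and at 92950 bp from SESN2. The SESN1 site had folds of 7.57 in MCF10A replicate 1, 9.71 in G12V replicate 1 and 22.0 in G12V replicate 2, and the SESN2 site, with an AP-1 motif but no p53 motif, had 4.85 and 7.74 in MCF10A replicate 1 and G12V replicate 2. An intronic site of FANCC, a Fanconi anaemia gene, had folds of 6.32 and 12.3 in these lists. All 4 had a higher fold in G12V replicate 2 than in MCF10A replicate 1, as had most sites of their list combinations. The median log2 ratio was 0.19 at sites of these lists alone, as at DRAM1, SESN2 and FANCC. It was 0.86 at those that also had a peak in G12V replicate 1, as at SESN1. The count is thus no result about these targets, and the DRAM1 peak was number 1715 of the 1718 of MCF10A replicate 1.

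The AP-1 family genes with a partly shared site were FOSL1, FOS, ATF3 and MAFF. FOSL1, which encodes the FOS-related protein FRA1, had one in an intron 1135 bp from a TSS, at chr11:65666488-65667026, with folds of 7.27 in MCF10A replicate 1 and 19.9 in G12V replicate 2. The site 56837 bp from FOS had folds of 6.59 and 14.9 in these lists. The sites of ATF3 and MAFF, at 62351 and 98921 bp, went the other way, with folds of 6.41 and 10.4 (ATF3) and of 9.08 and 8.17 (MAFF) in MCF10A replicates 1 and 2 and of 5.58 and 6.91 in G12V replicate 2. The sites of FOSL1 and FOS were in MCF10A replicate 1 and G12V replicate 2 alone, and those of ATF3 and MAFF in both MCF10A replicates. Over all sites of these combinations the median log2 ratio (G12V replicate 2 over MCF10A replicate 1) was 0.19 and -0.13. The directions are thus no result about these genes.

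The EGF receptor ligand genes EREG and AREG, neighbours on chromosome 4, shared a pair of partly shared sites. The one at chr4:75279116-75279531, which had no p53 motif, had folds of 26.8 and 12.7 in MCF10A replicates 1 and 2 and of 8.75 in G12V replicate 2. The other, nearer to AREG, had folds of 7.88, 6.97 and 5.79 in the same order. Both were thus higher in the MCF10A lists than in G12V replicate 2, and sites of this list combination had a median log2 ratio of -0.13 (G12V replicate 2 over MCF10A replicate 1). The site 16088 bp from TGFA, the gene of another ligand, had folds of 6.06 in MCF10A replicate 1, 6.96 in G12V replicate 1 and 14.2 in G12V replicate 2, and that of PHLDA1 had 10.6 and 7.64 in MCF10A replicate 1 and G12V replicate 2. Near VIM, the mesenchymal intermediate filament gene, a site of the second sequence family at 14258 bp had folds of 13.7 and 10.2 in MCF10A replicates 1 and 2 and of 17.8 in G12V replicate 2. CSTA, a cystatin gene of the epithelial list, had a site at 69118 bp with folds of 14.7 and 12.1 in MCF10A replicate 1 and G12V replicate 2.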

How the data were processed

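ChIP-seq of p53 and CTCF had been made in MCF10A and G12V cells, 16 samples in all with 8 inputs, and each of the 8 ChIP libraries had its own peak list. The authors aligned reads to hg19 with Bowtie, kept unique alignments, and called peaks with MACS2 against the input at a q of 5%, per library. The deposited lists hold a fold enrichment per peak (ratio of summit pileup to background), its −log10 p, its −log10 q, and a score that is a scaled −log10 q and was not used. Ranks within a list, by −log10 p, and fold were used only to describe sites.

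Depth and summit pileup were solved from the fold and the −log10 p of each peak, for a mappable genome of 2.7 Gb, and whole-read solutions were found for 99.4% to 99.9% of eligible peaks. No peak ended past a GRCh37 chromosome. Genes came from GENCODE release 44 mapped to GRCh37. Motifs were searched in 150 bp centred on a site's strongest summit. Python 3.11.15 with numpy 2.4.6, pandas 2.3.3, scipy 1.17.1 and pysam 0.24.0 was used, and the tests were checked on simulated data. Shares were compared by two-sided Fisher's exact tests with Benjamini-Hochberg adjustment over 10 tests and a threshold of 0.05. Intervals of shares are exact (Clopper-Pearson) and those of differences are Newcombe's, both at 95%.

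Named sites were, per list combination, the 4 with the best mean rank (2 where fewer than 20 sites existed), the highest fold in each list, the 4 best without mismatch, the 4 best with both motifs, those at the promoter limit, and the closest site of each list gene. The sequence families, the sites printed for them and the genes nearest to 3 or more sites were chosen after the values were seen. The partly shared sites, the lists and the tests were chosen with earlier results of these data known. Sequences of the first and the third family are not reported here.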

Additional observations from a re-analysis of the deposited data

How the results depend on the processing

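A total of 106 alternative values were computed, and 78 of them kept the direction and the side of the threshold, or a count within 1.5 times. Without 1 library at a time, the difference in p53 motif share ranged from -10.2 to -7.69 points against core sites, from 0.95 to 13.2 points against MCF10A-only sites and from 17.2 to 24.0 points against G12V-only sites. The difference in AP-1 share ranged from -3.57 to 10.99 points against core, from -0.997 to 12.1 points against MCF10A-only and from -6.55 to 3.66 points against G12V-only sites. The share inside genes differed from that of core sites by 3.29 to 9.35 points and the share at CTCF sites by -3.52 to 3.78 points, while the number of sites ranged from 91 to 916 and that of list genes from 3 to 14. Leaving out a list moves sites between the classes, so these ranges do not compare the same sets of sites. All 4 lists gave 288 core sites, 6.25% of them with an AP-1 motif. Core sites numbered 375 (8.27%) once MCF10A replicate 2 was dropped, and 683 (4.54%) once G12V replicate 1 was dropped. The ranges are thus not the spread of a fixed comparison over libraries, and no effect of a single library was tested apart from this regrouping. With 3 lists in place of 4 no partly shared site has 3 lists, so that the comparison of 3 with 2 lists has no value there. In lists of equal length (477 peaks) 153 sites and 2 list genes were left. The difference in p53 motif share was then -3.22 points against core and 2.67 points against MCF10A-only sites, that in AP-1 share -0.39 points against MCF10A-only sites and 5.36 points between sites of 3 and of 2 lists, and that in the share inside genes 3.01 points. A motif window of 300 bp turned the AP-1 difference from core sites to 1.04 points, and at most 2 mismatches made the p53 difference between sites of 3 and of 2 lists 6.95 points. In an alternative chosen after seeing the data, 32 identical bases beside the motif lowered the related share from 35.2 to 26.9%. A planned comparison of repeats at summits was not run, since the reference used here does not mark them, so 10 tests and not 11 were adjusted together. No paired analysis was possible because the sites pool the lists and no test used values per library. G12V replicate 1 had the lowest depth, 9.26 M reads, and the part of depth in the length of the lists was not tested.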
